A study of Sus scrofa with 12 samples.

Results

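RAB genes encode the small GTPases that direct vesicle traffic, and 48 of the 22861 genes in the deposited pig gene table carry a name made of RAB, a number and at most 1 letter. These 48 genes were followed in 12 RNA sequencing libraries of cultured interstitial cells of the pig aortic valve, which resemble fibroblasts and populate the leaflet; they were grown on glass and carry no genetic change named in the labels. The 4 groups, with 3 libraries each, were untreated cells at Stage 1 (day 5), untreated cells at Stage 2 (day 8), Stage 3 cells with the solvent DMSO, and Stage 3 cells with KPT. The stages are steps of calcification in culture. All Stage 3 cells had DMSO or KPT and the earlier cells had neither. In comparisons of Stage 3+DMSO with Stage 1 or Stage 2, stage, time in culture and solvent therefore cannot be told apart. KPT is a code name that the labels do not spell out, and its dose, its duration and the day of the Stage 3 harvests were not stated in the labels used here. The libraries are called biological replicates, but nothing states that they came from separate animals, so every p-value measures the spread between these 12 libraries.

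A RAB protein switches between a GTP-bound form on a membrane and a GDP-bound form that can be drawn off it. Exchange factors load GTP and so turn a RAB on, GTPase-activating proteins turn it off, and effectors such as tethers, motors and adaptors bind the active form. Each RAB marks a compartment: the endoplasmic reticulum and Golgi, the early endosome, the recycling endosome, the late endosome and lysosome, the secretory vesicle or the cilium. Valve interstitial cells secrete collagen and other matrix, and vesicles that such cells release are known as sites where calcification of the matrix can begin.

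Levels are given as RPKM, reads scaled to exon length and to the size of the library, which allows genes of different length to be compared. A gene entered the tests when it reached 1 RPKM in at least 3 libraries. Of the 48 RAB genes, 37 did and 11 did not (RAB3B, RAB3C, RAB6B, RAB9B, RAB15, RAB19, RAB20, RAB25, RAB39A, RAB40C and RAB44). RAB3C had no read in any of the 12 libraries. RAB39B passed the filter only through its 3 Stage 3+DMSO libraries, and RAB33A passed through 5 libraries of Stage 1 and Stage 2.

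A few family members made up most of the RAB RNA. The row named RAB1B had the highest mean level, 366 RPKM over the 12 libraries, followed by RAB7A at 302, RAB5C at 148, RAB31 at 146 and RAB2A at 118. These 5 genes held 52.6% of the summed mean RPKM of the family, and the 10 most abundant held 75.4%. RAB1 acts between the endoplasmic reticulum and the Golgi, RAB7A on the late endosome, RAB5C on the early endosome, RAB31 between the Golgi and endosomes and RAB2A at the Golgi. The row named RAB1B is described as RAB1A by the gene identifiers it carries, so which of the 2 close relatives it measures is uncertain. At the other end, RAB38, RAB39B and RAB33A averaged 0.959, 0.919 and 0.721 RPKM.

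**Figure D1:**
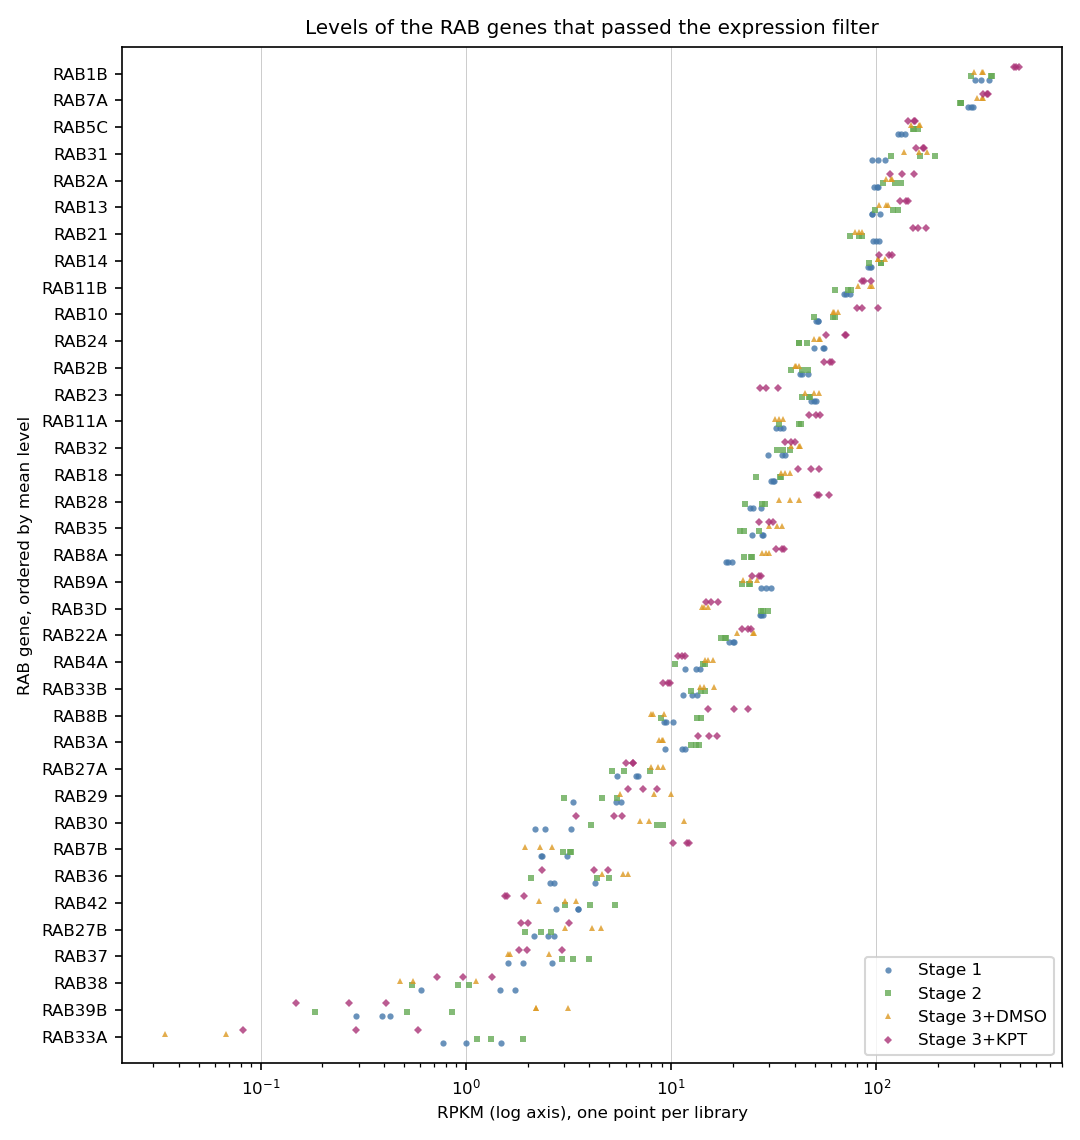
RPKM on a log axis of the 37 RAB genes that entered the tests, with 1 point per library coloured by group and genes ordered by mean level. The row named RAB1B lies at the top with a mean of 366 RPKM and RAB33A at the bottom with 0.721; the 1 Stage 3+DMSO library with RAB33A at 0 cannot be drawn on a log axis.

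RAB genes were called about as often as other genes, except less often from Stage 1 to Stage 2. The shares called in the 4 comparisons below were 29.7%, 45.9%, 51.4% and 56.8%, beside 40.7%, 44.1%, 47.7% and 60% of all genes tested. Calls rest on limma's moderated test of log2(RPKM + 1) in 1 fit of the 12 libraries, with p-values adjusted by Benjamini-Hochberg over the 13046 genes tested and a threshold of 0.05; fold changes below are on this scale, so those of genes at low level come out too small. From Stage 1 to Stage 2, 11 of the 37 RAB genes were called, beside 40.7% of all genes tested; 7 rose (16.3% of all genes) and 4 fell (24.4%). From Stage 2 to Stage 3+DMSO, 17 were called, beside 44.1% of all genes; 11 rose (33%) and 6 fell (11.1%). Between Stage 1 and Stage 3+DMSO, 19 were called, beside 47.7%; 15 rose (30.5%) and 4 fell (17.3%). With KPT against DMSO at Stage 3, 21 were called, beside 60% of all genes; 13 rose (30.5%) and 8 fell (29.5%).

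Large changes were few. By at least 2-fold, 1, 2, 2 and 3 RAB genes were called in the same order of comparisons, beside 4.28%, 4.81%, 7.4% and 14.4% of all genes. Those at Stage 3+DMSO against Stage 2 were RAB33A and RAB39B, which entered the tests only through groups in which they are high. RAB39B was also among those at Stage 3+DMSO against Stage 1 and with KPT. The median log2 change of the 37 RAB genes was 0.08, 0.09, 0.20 and 0.11, and that of all genes tested was -0.05, 0.15, 0.10 and 0.02. The 4 comparisons share libraries, Stage 3+DMSO being used in 3 of them, so their calls are not independent of each other. Without overlap between the 2 groups, whether called or not, were 13, 17, 27 and 21 RAB genes, beside 52.5%, 51.1%, 59% and 65.2% of all genes. Both called and without overlap were 11, 16, 18 and 20, beside 39.6%, 42.2%, 46.5% and 58.1%; in each comparison the order is Stage 2 against Stage 1, Stage 3+DMSO against Stage 2, Stage 3+DMSO against Stage 1 and KPT against DMSO. These counts include RAB39B and RAB33A, which passed the filter only through the groups in which they are high. RAB14, RAB36 and RAB38 were called in none of the 4 comparisons, and RAB8A in all 4.

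The split of the Stage 3+DMSO calls into higher and lower moved with the scaling of the libraries, as calls were lost and others gained; no called RAB gene reversed. Rescaling by the median ratio moved the median of all genes by -0.15 between Stage 2 and Stage 3+DMSO and by -0.10 between Stage 1 and Stage 3+DMSO. The RAB calls between Stage 2 and Stage 3+DMSO then became 5 higher and 11 lower, and under quantile normalization 5 higher and 9 lower. Over all genes the same split went from 4309 higher and 1446 lower to 2625 and 2543 by median ratio and 2546 and 2515 by quantiles. Between Stage 1 and Stage 3+DMSO they became 5 higher and 6 lower after median-ratio rescaling and 8 higher and 6 lower after quantile normalization, where all genes gave 2960 and 3162, and 2977 and 3179. For Stage 2 against Stage 1 the split was 9 higher and 3 lower by median ratio and 9 higher and 4 lower by quantiles. The KPT comparison kept 13 higher and 8 lower by median ratio and gave 14 and 7 by quantiles.

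**Figure D2:**
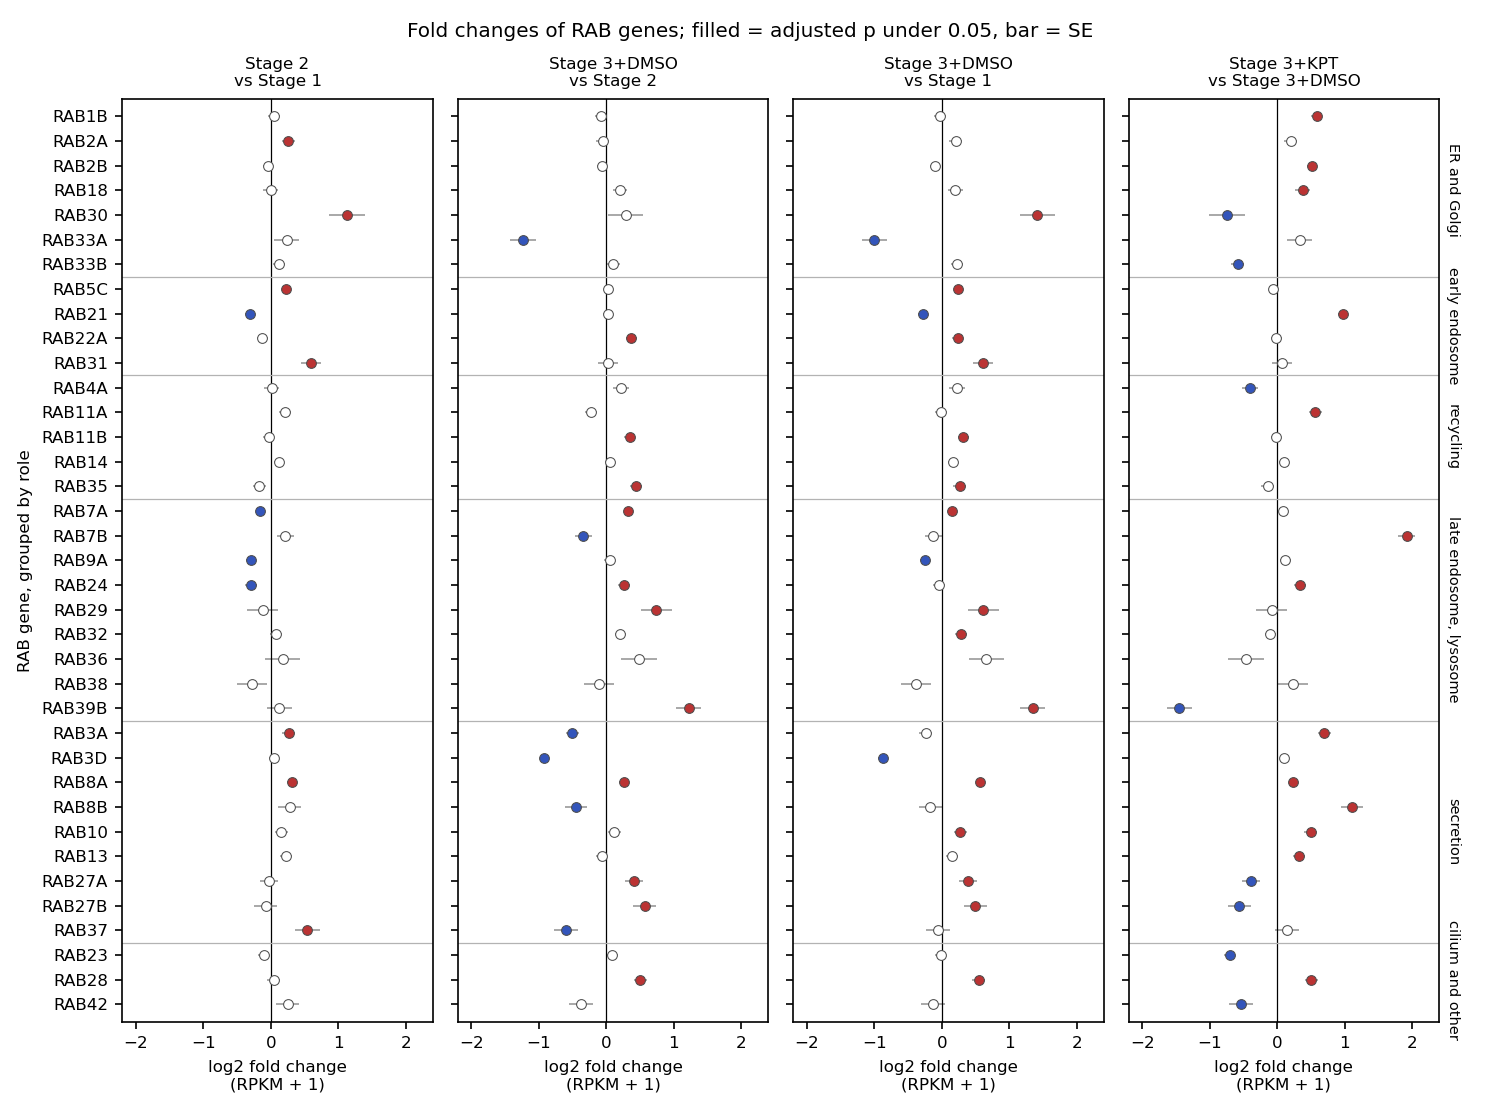
Log2 fold change of RPKM + 1 with its standard error for the 37 tested RAB genes in the 4 comparisons, grouped by the compartment in which each acts. Filled points have an adjusted p under 0.05 (red higher, blue lower, open not called); RAB7B lies farthest right at 1.92 and RAB39B farthest left at -1.45 with KPT, a gene that entered the tests only through the Stage 3+DMSO libraries.

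Among the 7 tested RAB genes of the endoplasmic reticulum and Golgi, 2, 1 and 2 were called in the 3 comparisons of stages, beside 40.7%, 44.1% and 47.7% of all genes. With KPT 3 rose and 2 fell, 71.4% beside 60% of all genes. The row named RAB1B was not called between the stages on the deposited scale, with 303, 325 and 352 RPKM at Stage 1, 289, 360 and 364 at Stage 2 and 328, 300 and 330 at Stage 3+DMSO. With KPT it stood at 496, 466 and 476 RPKM, above each of the other 9 libraries, a log2 change of 0.58 ± 0.09 (SE, adjusted p = 8.74e-05). Its change from Stage 2 to Stage 3+DMSO was -0.07 (adjusted p = 0.523), but was called lower after median-ratio rescaling (-0.24, adjusted p = 0.026), when replicate 1 was dropped from all groups (-0.20, adjusted p = 0.0405) and when libraries were weighted by quality (-0.18, adjusted p = 0.0399). RAB2B, a Golgi RAB, rose with KPT from 40.8 ± 0.98 to 58.6 ± 2.55 RPKM (SD, n = 3 each; log2 change 0.51 ± 0.07 SE, limma adjusted p = 6.03e-05). RAB18, which acts on the endoplasmic reticulum and lipid droplets, rose by 0.38 ± 0.11 (SE, adjusted p = 0.00912).

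RAB30, a Golgi RAB located at chromosome 9, 19117863 to 19130117 on the plus strand of the deposited coordinates, rose early. It was at 2.44, 3.27 and 2.17 RPKM at Stage 1, at 4.05, 9.12 and 8.53 at Stage 2, at 11.5, 7.76 and 7.07 at Stage 3+DMSO and at 5.29, 5.73 and 3.45 with KPT. Every Stage 2 library lay above every Stage 1 library, replicate 1 of Stage 2 by the least. The log2 change was 1.13 ± 0.26 (SE, adjusted p = 0.00447) to Stage 2 and 1.42 ± 0.26 (adjusted p = 0.000765) from Stage 1 to Stage 3+DMSO. With KPT RAB30 fell by 0.74 ± 0.26 (adjusted p = 0.0263). That KPT call rested on single libraries: without replicate 1 of Stage 3+DMSO the adjusted p was 0.108, and without replicate 3 of Stage 3+KPT it was 0.113.

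RAB33A and RAB33B, which share their number and act at the Golgi and in autophagy, moved apart. RAB33A lies on chromosome X, 122480859 to 122491867, plus strand. It was at 0.773, 1 and 1.48 RPKM at Stage 1 and at 1.89, 1.32 and 1.13 at Stage 2. It was at 0.0343, 0.0675 and 0 at Stage 3+DMSO and at 0.291, 0.582 and 0.0825 with KPT. The Stage 3 libraries all lay below the untreated Stage 1 and Stage 2 libraries. Summed over the 3 libraries of a group, it had 89 reads at Stage 1, 112 at Stage 2, 3 at Stage 3+DMSO and 28 with KPT. The Stage 2 rate over the pooled reads was 42-fold that of Stage 3+DMSO, an imprecise ratio because the lower group had 3 reads. RAB33A entered the tests only through Stage 1 and Stage 2, so its difference from Stage 3+DMSO is given as a description with no test. Between KPT and DMSO the change was 0.33 ± 0.19 and was not called (adjusted p = 0.145), whereas it was 1.48 (adjusted p = 0.0249) with a pseudocount of 0.1 in place of 1 and 2.62 (adjusted p = 0.022) by limma-voom on the recovered reads. RAB33B, at a higher level throughout, was called only with KPT among the 4 comparisons, falling from 14.8 ± 1.21 to 9.53 ± 0.37 RPKM (SD, n = 3 each; log2 change -0.59 ± 0.09 SE, limma adjusted p = 0.000125).

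Among the early endosome RABs, RAB21 gave the clearest response to KPT. RAB21 works in the uptake of integrins, the receptors that hold a cell to its matrix, and lies on chromosome 5, 38458530 to 38486846, plus strand. It was at 99.7, 103 and 95.9 RPKM at Stage 1, at 74.3, 82 and 84.7 at Stage 2, at 78.3, 81.8 and 85.1 at Stage 3+DMSO and at 175, 150 and 159 with KPT. All KPT libraries were above all others, and all Stage 1 libraries were above all Stage 2 and Stage 3+DMSO libraries. The log2 change was 0.97 ± 0.07 (SE, adjusted p = 1.12e-07) with KPT and -0.31 ± 0.07 (adjusted p = 0.00414) from Stage 1 to Stage 2. Each of its 7 annotated exons rose with KPT with no overlap between the groups, by 0.68 to 1.48 on the log2 scale.

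RAB31 and RAB5C rose between Stage 1 and Stage 2 and were not called in the later steps. RAB31 was at 101, 110 and 95 RPKM at Stage 1, at 117, 164 and 192 at Stage 2, at 136, 177 and 161 at Stage 3+DMSO and at 169, 170 and 156 with KPT. The Stage 1 libraries were lowest, and replicate 1 of Stage 2 lay nearest to them. Its log2 change to Stage 2 was 0.59 ± 0.15 (SE, adjusted p = 0.00643) and was 0.79 without that library. RAB5C, which drives fusion of early endosomes, rose from 132 ± 5.65 to 154 ± 4.54 RPKM (SD, n = 3 each; log2 change 0.22 ± 0.06 SE, limma adjusted p = 0.0112). Only 5 of the 11 RAB calls from Stage 1 to Stage 2 held in every alternative, that of RAB31 among them. RAB22A, an endosomal RAB of the same subfamily, rose at Stage 3+DMSO against Stage 2 by 0.37 ± 0.08 (adjusted p = 0.00287), but the call was lost after median-ratio rescaling (0.21, adjusted p = 0.0508) and quantile normalization (0.18, adjusted p = 0.0929).

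RAB20, an early endosome and phagosome RAB, did not pass the filter and is given as a description, chosen after its values were seen. It was at 0.582, 0.248 and 0.404 RPKM at Stage 1, at 0.285, 0.142 and 0.422 at Stage 2, at 2.36, 1.18 and 0.866 at Stage 3+DMSO and at 0.299, 0.503 and 0.339 with KPT. The 3 Stage 3+DMSO libraries were above the other 9. Its summed reads were 30, 22, 127 and 34 in the 4 groups, and the Stage 3+DMSO rate over the pooled reads was 3.74-fold that with KPT.

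The recycling RABs, which return membrane to the cell surface, were called by limma in none of 5 genes from Stage 1 to Stage 2 (1 of 5 at an unadjusted p under 0.05, and 0 by limma-voom). They were called in 2 of 5 at Stage 3+DMSO against Stage 2 and in 2 of 5 with KPT. Over all genes tested, the shares called in these comparisons were 40.7%, 44.1% and 60%. RAB11A and RAB11B, close relatives on the recycling endosome, were called in different comparisons on the deposited scale. In 6 of 18 alternatives, both rescalings among them, RAB11A was also called lower at Stage 3+DMSO against Stage 2. In 5 of 18 it was called higher from Stage 1 to Stage 2. RAB11A was at 35, 33.5 and 32.1 RPKM at Stage 3+DMSO and at 52.8, 47.2 and 50.6 with KPT, without overlap, a log2 change of 0.57 ± 0.09 (SE, adjusted p = 0.000143). RAB11B was at 81.4, 94.7 and 93.2 and at 84.6, 94.4 and 86.9 RPKM in these groups, which overlapped (change -0.02 ± 0.08, adjusted p = 0.872). RAB11B instead rose at Stage 3+DMSO against Stage 2 by 0.35 ± 0.08 (adjusted p = 0.00372), a call that median-ratio rescaling removed (0.18, adjusted p = 0.0976). RAB35, which returns endosomal cargo to the surface, rose from 23.8 ± 2.74 to 32.5 ± 2.35 RPKM between Stage 2 and Stage 3+DMSO (SD, n = 3 each; log2 change 0.44 ± 0.09 SE, limma adjusted p = 0.00233). RAB4A, the RAB of fast recycling, fell with KPT from 15.2 ± 0.75 to 11.2 ± 0.48 RPKM (SD, n = 3 each; log2 change -0.41 ± 0.12 SE, limma adjusted p = 0.0091).

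Of the 9 tested late endosome and lysosome RABs, 3 were called with KPT (2 higher, 1 lower), or 33.3% beside 60% of all genes. RAB7B, which acts between late endosomes and the Golgi, lies on chromosome 9, 72916107 to 72946419, plus strand. It was at 2.36, 2.33 and 3.1 RPKM at Stage 1, at 2.99, 3.22 and 3.24 at Stage 2, at 2.62, 1.93 and 2.31 at Stage 3+DMSO and at 12.2, 11.9 and 10.2 with KPT. The 9 libraries without KPT stayed below 4 RPKM and the KPT libraries were all above 10. The log2 change with KPT was 1.92 ± 0.12 (SE, adjusted p = 4.11e-08). All 6 annotated exons rose without overlap, by 1.61 to 2.43.

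RAB7A, the main RAB of fusion between late endosomes and lysosomes, did not follow RAB7B. It was at 280, 289 and 295 RPKM at Stage 1, at 259, 255 and 258 at Stage 2, at 308, 331 and 327 at Stage 3+DMSO and at 347, 351 and 329 with KPT. Stage 2 was lowest, and the 2 Stage 3 groups overlapped. RAB7A rose from Stage 2 to Stage 3+DMSO by 0.32 ± 0.05 (SE, adjusted p = 0.000262), and after median-ratio rescaling the change was 0.16 (adjusted p = 0.0277). Its change with KPT was 0.09 ± 0.05 (adjusted p = 0.148).

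RAB39B, known for its part in neurons and in autophagy, was highest in the Stage 3+DMSO group. The gene lies on chromosome X, 142903488 to 142910193, plus strand. It was at 0.388, 0.428 and 0.291 RPKM at Stage 1, at 0.86, 0.185 and 0.517 at Stage 2, at 3.15, 2.19 and 2.2 at Stage 3+DMSO and at 0.409, 0.149 and 0.268 with KPT. The 3 Stage 3+DMSO libraries were all above 2 RPKM and the other 9 all below 1. Its summed reads were 65, 88, 506 and 52 in the 4 groups, and the Stage 3+DMSO rate over the pooled reads was 9.73-fold the KPT rate. Because RAB39B entered the tests only through the group in which it is high, its values are given as a description with no test. RAB39A, its relative, never reached 1 RPKM.

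The other late endosome RABs changed less. RAB24, linked to autophagy, fell from Stage 1 to Stage 2 by 0.30 ± 0.09 (SE, adjusted p = 0.0161), a call lost without replicate 2 or 3 of Stage 1 (0.0624 and 0.0542) or replicate 2 or 3 of Stage 2 (0.055 and 0.052), and rose with KPT by 0.34 ± 0.09 (adjusted p = 0.00497). RAB9A, which returns mannose 6-phosphate receptors from late endosomes to the Golgi, fell from Stage 1 to Stage 2 by 0.30 ± 0.08 (adjusted p = 0.00945). RAB29, a RAB that recruits the kinase LRRK2, rose from 4.35 ± 1.23 at Stage 2 to 7.96 ± 2.22 RPKM at Stage 3+DMSO (SD, n = 3 each; log2 change 0.74 ± 0.23 SE, limma adjusted p = 0.0197). That call was lost without replicate 1 of Stage 2 (adjusted p = 0.0804), without replicate 1 of Stage 3+DMSO (0.0762), without replicate 2 of Stage 3+DMSO (0.0566) or after median-ratio rescaling (0.052). RAB32, of lysosome-related organelles, rose between Stage 1 and Stage 3+DMSO by 0.29 ± 0.08 (adjusted p = 0.0139), a call lost without replicate 1 of Stage 1 (0.0679) or after median-ratio rescaling (0.0804), and its relative RAB38 was called in none of the 4 comparisons.

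**Figure D3:**
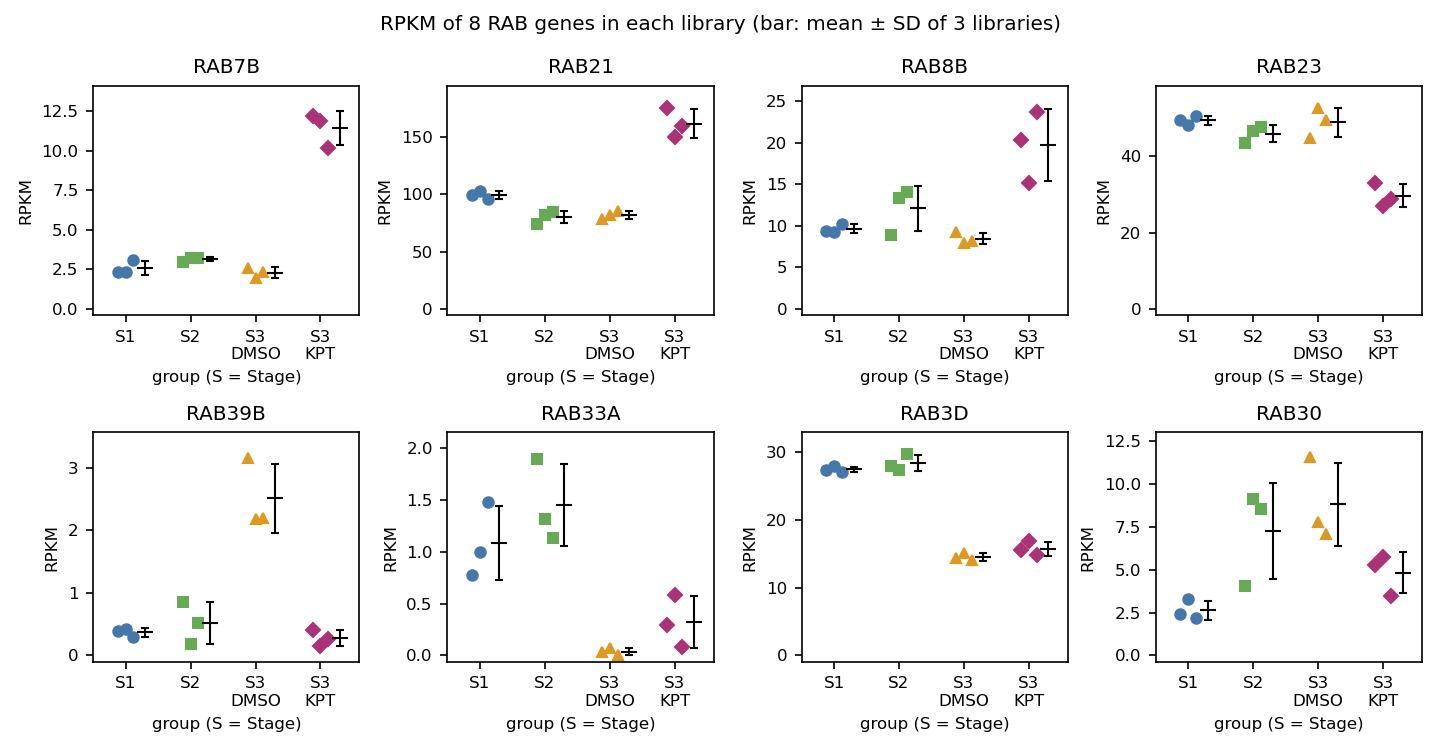
RPKM of 8 RAB genes in each library of the 4 groups, with the mean and SD of 3 libraries beside the points. RAB7B and RAB21 are highest in the 3 KPT libraries, RAB39B in the 3 Stage 3+DMSO libraries, where all are above 2 RPKM, and RAB3D and RAB33A are low in all Stage 3 libraries.

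Of the 9 tested RABs of secretion and polarised delivery, 7 were called at Stage 3+DMSO against Stage 2 (3 higher, 4 lower), beside 44.1% of all genes, and 7 with KPT (5 higher, 2 lower), beside 60%. RAB3D, which acts on secretory granules, lies on chromosome 2, 70385629 to 70398853, minus strand. It was at 27.4, 27.9 and 27.1 RPKM at Stage 1, at 28, 27.5 and 29.7 at Stage 2, at 14.4, 15.2 and 14.1 at Stage 3+DMSO and at 15.6, 16.9 and 14.8 with KPT. The 6 Stage 3 libraries were all below 17 RPKM and the 6 earlier ones all above 27. The log2 change from Stage 2 to Stage 3+DMSO was -0.92 ± 0.07 (SE, adjusted p = 1.12e-06), and the change with KPT was 0.11 ± 0.07 (adjusted p = 0.213).

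RAB3A, the synaptic vesicle member of the same subfamily, was lower at Stage 3+DMSO than at Stage 2 and higher with KPT than with DMSO. It was at 9.36, 11.7 and 11.3 RPKM at Stage 1, at 13.6, 13.2 and 12.5 at Stage 2, at 8.69, 9.13 and 9.05 at Stage 3+DMSO and at 15.3, 16.7 and 13.6 with KPT. Stage 3+DMSO lay below all other groups. The log2 change was -0.50 ± 0.10 (SE, adjusted p = 0.00138) from Stage 2 and 0.70 ± 0.10 (adjusted p = 5.59e-05) with KPT. Against Stage 1 the change at Stage 3+DMSO was -0.24 and was not called. Of the rest of the subfamily, RAB3B never reached 1 RPKM and RAB3C had no read.

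RAB8A and RAB8B, which carry Golgi cargo to the cell surface and the cilium, both rose with KPT by different amounts. RAB8B was at 9.22, 7.97 and 8.19 RPKM at Stage 3+DMSO and at 20.3, 15.1 and 23.7 with KPT, without overlap, a log2 change of 1.11 ± 0.17 (SE, adjusted p = 9.59e-05). At Stage 1 it was at 9.4, 9.26 and 10.2 and at Stage 2 at 8.93, 13.3 and 14, where replicate 1 stood below the other 2 libraries. RAB8B lies on chromosome 1, 119998092 to 120019205, minus strand, and all of its 7 expressed exons rose with KPT. RAB8A was at 18.5, 19.8 and 19 RPKM at Stage 1, at 22.6, 24.6 and 24.6 at Stage 2, at 29.9, 29.1 and 27.6 at Stage 3+DMSO and at 34.7, 35.3 and 32.5 with KPT, and no 2 of the 4 groups overlapped. Its log2 change was 0.31 ± 0.07 (SE, adjusted p = 0.00292) to Stage 2, 0.26 ± 0.07 (adjusted p = 0.00748) on to Stage 3+DMSO and 0.24 ± 0.07 (adjusted p = 0.00885) with KPT. The call between Stage 2 and Stage 3+DMSO was lost after median-ratio rescaling (0.10, adjusted p = 0.24).

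RAB10 and RAB13, which also deliver cargo to the plasma membrane, rose with KPT. RAB10 went from 62.6 ± 1.90 to 89.2 ± 11.4 RPKM and RAB13 from 109 ± 5.69 to 137 ± 6.83 (SD, n = 3 each), with log2 changes of 0.50 ± 0.10 and 0.33 ± 0.09 (SE, limma adjusted p = 0.000737 and 0.00545). RAB27A and RAB27B, the RABs of exosome and granule release, had their highest means at Stage 3+DMSO. RAB27A averaged 6.36, 6.31, 8.59 and 6.34 RPKM in the 4 groups and RAB27B 2.46, 2.29, 3.91 and 2.35. The rise of RAB27A from Stage 2, 0.41 ± 0.13 (SE, adjusted p = 0.0256), was lost after median-ratio rescaling (0.124), quantile normalization (0.281) and a fit of the 2 groups alone (0.0704). It was also lost without replicate 1 (0.0988) or 2 (0.0764) of Stage 2 or replicate 2 (0.0822) or 3 (0.0604) of Stage 3+DMSO. The rise of RAB27B, 0.57 ± 0.17 (adjusted p = 0.0164), was lost after quantile normalization (0.0813) and without replicate 1 of Stage 2 (0.057) or replicate 1 (0.0585) or 2 (0.0522) of Stage 3+DMSO. Without replicate 1 of every group both were lost (0.0965 and 0.0785). With KPT they fell by 0.38 ± 0.13 (adjusted p = 0.0245) and 0.56 ± 0.17 (adjusted p = 0.0126), with 1 KPT library of RAB27B, at 3.19, above the lowest DMSO library at 3.05. Both KPT calls rested on single libraries: RAB27A was lost without replicate 2 of Stage 3+DMSO (adjusted p = 0.078), without replicate 3 of Stage 3+DMSO (0.0554) or without replicate 1 of Stage 3+KPT (0.0734), and RAB27B without replicate 3 of Stage 3+KPT (0.0576). RAB37, another granule RAB, was higher at Stage 2 (3.96, 3.31 and 2.94 RPKM) than at Stage 3+DMSO (1.6, 1.64 and 2.53), a log2 change of -0.60 ± 0.18 (adjusted p = 0.0176) that was lost without replicate 1 of Stage 2 (0.0629), without replicate 1 of Stage 3+DMSO (0.0559) or without replicate 2 of Stage 3+DMSO (0.0614).

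The 3 remaining tested members, 2 of them known from the cilium, were all called with KPT, beside 60% of all genes. Of these, 1 rose and 2 fell. RAB23, a negative regulator of hedgehog signalling, lies on chromosome 7, 33091878 to 33119792, plus strand. It was at 49.4, 48.1 and 50.6 RPKM at Stage 1, at 43.5, 46.7 and 47.6 at Stage 2, at 44.8, 52.5 and 49.4 at Stage 3+DMSO and at 33, 27.1 and 28.9 with KPT. The KPT libraries were lowest, and Stage 3+DMSO overlapped both Stage 1 and Stage 2. The log2 change was -0.70 ± 0.08 (SE, adjusted p = 9.21e-06), and all 7 exons fell, by 0.63 to 1.00.

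RAB28, a RAB of cilia and photoreceptors, was higher at Stage 3+DMSO than at Stage 2 and higher again with KPT. It was at 25.1, 24.2 and 27.4 RPKM at Stage 1, at 23, 28.5 and 27.8 at Stage 2, at 42, 33.6 and 38.1 at Stage 3+DMSO and at 58.6, 52.3 and 51.5 with KPT. Only Stage 1 and Stage 2 overlapped. The log2 change was 0.51 ± 0.10 (SE, adjusted p = 0.00148) from Stage 2 and 0.51 ± 0.10 (adjusted p = 0.000818) with KPT. A second gene ID is also named RAB28 by an ID table, so reads may have been split between them. RAB42 fell with KPT by 0.54 ± 0.17 (adjusted p = 0.0171), a call that was lost without replicate 2 of Stage 3+DMSO (0.0705) or without replicate 3 of Stage 3+KPT (0.0529).

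Exon values carried most called genes as a whole. Counting exons with expression, all of them moved with the gene in 11 of 11 called RAB genes from Stage 1 to Stage 2, in 16 of 17 at Stage 3+DMSO against Stage 2, in 19 of 19 against Stage 1 and in 17 of 21 with KPT. The exceptions with KPT were RAB18, where 4 of 7 exons rose, RAB10 (5 of 6), RAB4A (6 of 7) and RAB8A (7 of 8). In RAB18 the first exon changed by -0.45 and the fifth by 0.60. Exon values share the reads of their gene and are not replicates.

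**Figure D4:**
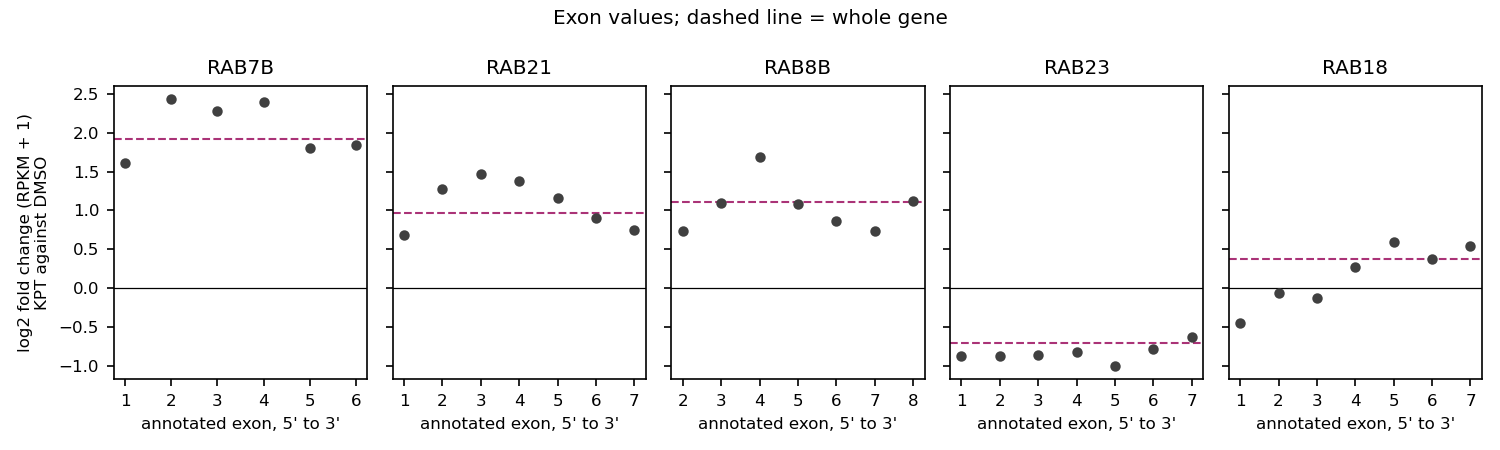
Log2 change of RPKM + 1 with KPT against DMSO for each expressed annotated exon of 5 RAB genes, with exons numbered from the 5' end and the whole-gene value as a dashed line. All exons of RAB7B, RAB21 and RAB8B lie above 0 and all of RAB23 below it, whereas the exons of RAB18 range from -0.45 to 0.60.

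Close relatives with the same number were compared as ratios within each library, which do not depend on library scaling apart from the pseudocount of 1. In 7 pairs and 4 comparisons a two-sided exact permutation test was run, 28 in all; 19 of the 28 reached 0.1, the smallest p that 3 against 3 libraries allow, with an adjusted value of 0.147, so none could pass the threshold. The RAB3A to RAB3D log2 ratio was -1.28 ± 0.15 at Stage 1, -1.06 ± 0.11 at Stage 2, -0.64 ± 0.05 at Stage 3+DMSO and -0.05 ± 0.06 with KPT (SD, n = 3 each), and no neighbouring groups in this order overlapped. The RAB8A to RAB8B ratio was 0.92 ± 0.10, 0.95 ± 0.26, 1.66 ± 0.08 and 0.79 ± 0.37, with Stage 3+DMSO above all other libraries. The RAB2A to RAB2B ratio was 1.17 ± 0.05, 1.48 ± 0.01, 1.48 ± 0.02 and 1.17 ± 0.14, with Stage 2 and Stage 3+DMSO overlapping. In the RAB27A and RAB27B pair the groups overlapped in all 4 comparisons.

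**Figure D5:**
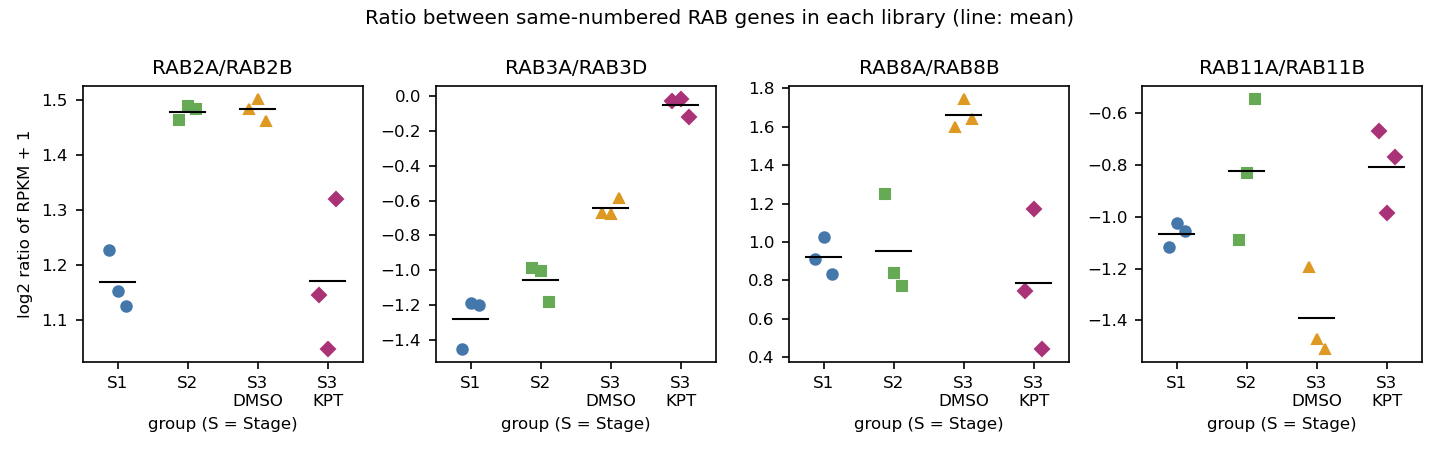
Log2 ratio of RPKM + 1 between 2 same-numbered RAB genes in each library of the 4 groups, with the group mean as a line; each panel has its own axis range. RAB3A to RAB3D goes from a mean of -1.28 at Stage 1 to -0.05 with KPT, and RAB8A to RAB8B is highest at Stage 3+DMSO at 1.66.

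The summed RPKM of the 48 RAB genes was 1833 ± 45.1 at Stage 1, 1924 ± 154 at Stage 2, 2029 ± 26.8 at Stage 3+DMSO and 2431 ± 42.7 with KPT (SD, n = 3 each). The 3 KPT libraries were above the other 9, and the two-sided exact permutation test against DMSO gave p = 0.1, the smallest possible here. Abundant genes weigh most in this sum. From DMSO to KPT the mean of the row named RAB1B went from 319 to 479 RPKM and that of RAB21 from 81.7 to 161. Single RAB genes were called in both directions with KPT, 13 higher and 8 lower. RABs of the endoplasmic reticulum and Golgi held 28.3%, 28.8%, 26.4% and 30.2% of that sum in the 4 groups. Without the row named RAB1B these shares were 12.7%, 13.7%, 12.7% and 13.1%.

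The genes that load, remove and read RAB proteins also moved in both directions. Their splits between Stage 2 and Stage 3+DMSO, on the deposited scale, stand beside 33% higher and 11.1% lower over all genes, a split that became 2625 higher and 2543 lower genes after median-ratio rescaling; the lists were not counted on the rescaled values. Of 8 genes of the prenylation and membrane cycle, 3 rose and 3 fell with KPT (75%, beside 60% of all genes). RABAC1, a membrane receptor for prenylated RABs, fell from 361 ± 5.71 to 201 ± 21.2 RPKM (SD, n = 3 each; log2 change -0.85 ± 0.07 SE, limma adjusted p = 4.15e-07). CHM, the escort protein that presents new RABs for prenylation, rose by 0.58 ± 0.13 (SE, adjusted p = 0.00213). Over the stages the list gave 1 higher and 3 lower from Stage 1 to Stage 2, beside 16.3% higher and 24.4% lower over all genes. It gave 3 higher and 2 lower on to Stage 3+DMSO. The list's median change with KPT was 0.07, beside 0.02 for all genes.

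Exchange factors were called in 20 of 29 tested genes with KPT (69%, beside 60% of all genes), 10 higher and 10 lower, with a median change of -0.11. RIN2, an exchange factor for RAB5, was at 3.93 ± 0.95 RPKM at Stage 1, 7.24 ± 0.15 at Stage 2, 14.0 ± 2.69 at Stage 3+DMSO and 35.5 ± 1.98 with KPT (SD, n = 3 each). It rose in each of these successive comparisons, by 0.76, 0.84 and 1.30 on the log2 scale (limma adjusted p = 0.00135, 0.000542 and 6.75e-06). RIC1, which with RGP1 activates RAB6, rose by 0.92 ± 0.11 (SE, adjusted p = 1.06e-05). The largest fall of the list with KPT was that of ALS2CL, from 7.70 ± 3.66 to 0.461 ± 0.064 RPKM (SD, n = 3 each). Its log2 change was -2.49 ± 0.23 (SE, limma adjusted p = 1.26e-06). The list gave 3 higher and 9 lower from Stage 1 to Stage 2, beside 16.3% higher and 24.4% lower over all genes. From Stage 2 to Stage 3+DMSO it gave 8 higher and 1 lower, beside 33% and 11.1%.

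GTPase-activating proteins were called in 16 of 30 tested genes with KPT (53.3%, beside 60% of all genes), 7 higher and 9 lower, with a median change of -0.06. RAB3GAP1, the catalytic subunit of the complex that inactivates RAB3, rose from 34.6 ± 2.88 to 82.8 ± 4.88 RPKM (SD, n = 3 each; log2 change 1.24 ± 0.09 SE, limma adjusted p = 1.09e-07). TBC1D2B, a protein with the TBC domain that defines most RAB inactivators, rose from Stage 2 to Stage 3+DMSO by 1.05 ± 0.09 (adjusted p = 1.77e-06) and fell with KPT by 1.34 ± 0.09 (adjusted p = 3.39e-08). Between Stage 1 and Stage 2 the list gave 6 higher and 8 lower, beside 16.3% higher and 24.4% lower over all genes. Between Stage 2 and Stage 3+DMSO it gave 10 higher and 2 lower, beside 33% and 11.1%.

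Effectors were called in 23 of 35 tested genes from Stage 2 to Stage 3+DMSO (65.7%, beside 44.1% of all genes), 17 higher and 6 lower, with a median change of 0.23 beside 0.15 for all genes. APPL2, an adaptor bound by RAB5 and its relatives, rose from 17.5 ± 1.31 to 43.2 ± 1.94 RPKM (SD, n = 3 each; log2 change 1.26 ± 0.08 SE, limma adjusted p = 2.43e-07). With KPT, 9 effectors rose and 12 fell, or 60% of those tested. Over all genes 60% were called with KPT, 30.5% higher and 29.5% lower. SYTL2, an effector of RAB27, fell from 15.5 ± 1.11 to 4.53 ± 0.54 RPKM (SD, n = 3 each; log2 change -1.58 ± 0.09 SE, limma adjusted p = 8.9e-09). MICALL2, an effector of RAB8 and RAB13, rose by 1.17 ± 0.09 (adjusted p = 3.2e-07), and BICD1, a motor adaptor bound by RAB6, fell by 1.21 ± 0.11 (adjusted p = 1.07e-06).

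The libraries carried the markers of interstitial cells, and those markers moved with KPT. Summed RPKM of 6 interstitial cell genes (VIM, COL1A2, COL3A1, DCN, LUM and PDGFRB) was 19580 to 20488 at Stage 1, 26509 to 27442 at Stage 2, 24694 to 27423 at Stage 3+DMSO and 13363 to 14128 with KPT. All 6 were called with KPT, 2 higher and 4 lower, beside 60% of all genes. Of 4 endothelial genes found, 1 (PECAM1) was expressed, and the list summed to 7.22 to 9.62 RPKM with DMSO and 5.24 to 6.88 with KPT, with VWF at or near 0. Of 4 leukocyte genes, 2 (CD68 and CD14) were expressed and PTPRC was at or near 0; the sums overlapped, 14.4 to 15.1 with DMSO and 12.1 to 15.3 with KPT. Of 5 pigment cell genes, 2 were expressed; TYRP1 reached 2.65 to 3.83 RPKM with KPT, while TYR and DCT stayed at or near 0, and none of 3 epithelial genes was expressed. The part of these shifts in the RAB results with KPT was not tested, and in such bulk samples fewer cells of a type and less RNA per cell cannot be told apart.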

How the data were processed

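RNA was measured in 12 libraries, 3 in each of 4 groups. Per the labels' protocols, 500 ng of RNA per library went into a stranded mRNA kit, and the submitters' processing notes name the aligner TopHat2 2.1.0. Counting tool, use of strand, genome build and annotation are not given in the labels, so antisense and near-identical genes may share reads. The authors deposited RPKM values for genes and for exons, with gene names, IDs and coordinates. A library total was inferred for each library from its smallest nonzero exon value. Scaling each value by exon length and this total returned whole reads for 100% of genes within 0.0001. The inferred totals ran from 13188023 to 24724019, and replicates correlated at 0.9853 to 0.9942 across genes. Recovered reads summed over genes were 1.7511 to 1.8131 times these totals. The reason was not tested, so the recovered reads may not all be separate fragments.

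The RAB genes and the lists of related genes and markers were chosen with earlier results of these data known. Named machinery genes are the 2 largest called changes in each direction per list and comparison, of which a selection is printed; RAB genes named are up to 8 with the largest called, non-overlapping rise and fall per comparison plus a fixed panel, ordered by compartment; RAB18, RAB20, RAB36, RAB39A and the other genes under the filter were named after their values were seen. Tests ran in R 4.3.3 with limma 3.58.1, fitted to log2(RPKM + 1) with an expression trend and a coefficient per group, over genes with at least 1 RPKM in at least 3 libraries. The fit was tested on simulated data for KPT against DMSO over 13046 genes, where it recovered 24%, 82%, 88% and 98% of genes changed by 1.25, 1.5, 2 and 3 fold. Only 50 genes were changed per fold, and all genes shared 1 setting for the spread between libraries. In the real comparison 60% of genes were called, so these shares do not give the recovery in the real data. Alternatives were pseudocounts of 0.1 and 0.5, other filters and scalings, no trend, fits of 2 groups, library weights, a replicate block, limma-voom on the recovered reads, and each library left out. Leaving out replicate 1 of every group was added after seeing the data. A planned comparison of protein sequences was not run. Some genes of the related lists are not reported here by name.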

Additional observations from a re-analysis of the deposited data

How the results depend on the processing

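No called RAB change reversed under any of the alternatives run. The RAB calls that held in every one of them numbered 5 of 11 for Stage 2 against Stage 1, 7 of 17 for Stage 3+DMSO against Stage 2, 8 of 19 for Stage 3+DMSO against Stage 1 and 17 of 21 for KPT against DMSO, while 6, 6, 8 and 4 uncalled RAB genes were called in at least 1 alternative. Lost calls are spelled out above for only some genes and settings. Leaving out 1 library gave 6 to 14, 10 to 16, 12 to 16 and 18 to 22 called RAB genes in that order, and 4332 to 5136, 4938 to 5608, 5300 to 5960 and 7118 to 7565 called genes in all. The lowest RAB counts came without replicate 3 of Stage 1 or replicate 2 of Stage 2 (6 each) and without replicate 2 of Stage 3+DMSO (10 and 12); such fits have fewer samples. Library quality weights gave 17 RAB calls for Stage 2 against Stage 1, and median-ratio rescaling gave 11 for Stage 3+DMSO against Stage 1; the cause was not tested. With a replicate block the counts were 10, 17, 20 and 21. Same-numbered libraries deviated together with correlations of -0.0713 to 0.0748. For KPT against DMSO these were 0.0655, 0.0748 and 0.0334, above the highest value for differently numbered libraries, 0.0322. They were also the highest for Stage 3+DMSO against Stage 1, but not in the remaining comparisons. Such small values cannot settle whether the numbers pair the samples, and pairing was not tested. Without replicate 1 of every group, an alternative added after seeing the data, the counts were 11, 14, 17 and 22. Replicate 1 had the lowest inferred library total in each group. These totals were 13188023 at Stage 1, 14712015 at Stage 2, 19818092 at Stage 3+DMSO and 14001872 with KPT. The part of depth in the values of replicate 1 was not tested. Limma-voom on the recovered reads called 10, 18, 21 and 22. Depth limits RAB33A, RAB39B and the 11 genes under the filter, which rest on few reads. Some called changes also rest on few reads. Summed over the libraries of a group, RAB30 had 88 to 331 reads and RAB37 83 to 137. RAB27B had 124 to 234 and RAB42 186 to 404.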

Other observations

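Further gene IDs are named RAB only by tables of IDs and symbols and so lie outside the 48 genes. RAB34, which acts at the Golgi, in lysosome positioning and in cilia, averaged 103 ± 3.64 RPKM at Stage 1, 104 ± 2.84 at Stage 2, 110.1 ± 3.36 at Stage 3+DMSO and 73.7 ± 7.94 with KPT (SD, n = 3 each). It fell with KPT by 0.58 ± 0.07 on the log2 scale (SE, limma adjusted p = 1.6e-05), and the KPT libraries lay below all others. The second RAB28 ID averaged 33.2, 32.7, 48.1 and 68.6 RPKM in the 4 groups and was called at Stage 3+DMSO against Stage 2 (0.55 ± 0.07) and with KPT (0.50 ± 0.07), as the first ID was. RAB6A, a Golgi RAB, averaged 117, 110.1, 116 and 119.6 RPKM and was called in none of the 4 comparisons. RAB4B, of the recycling endosome, rose from 20.1 ± 1.78 to 24.9 ± 1.10 RPKM between Stage 2 and Stage 3+DMSO (log2 change 0.30 ± 0.10 SE, limma adjusted p = 0.0249). RAB40B was near the filter and called in none, and RAB17 had no read.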
